A study of Mus musculus with 3 samples.

Results

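RARβ, the retinoic acid receptor beta, and the promoter mark H3K4me3 were examined at the genes that give striatal neurons their GABAergic identity. All peaks of both deposited peak lists that overlapped 1 of 4 fixed windows of mouse build mm9 were taken. The windows were chromosome 2, 70380000 to 70445000, for Gad1, chromosome 2, 22465000 to 22555000, for Gad2, chromosome 2, 71355000 to 71395000, for Dlx1 and Dlx2, and chromosome 6, 6800000 to 6845000, for Dlx5 and Dlx6. They held 13 of the 35971 H3K4me3 peaks and 14 of the 8075 RARβ peaks. Gene names are absent from both lists, so a peak is assigned to a window and not to an exon, intron or transcription start. Below and above mean towards lower and higher coordinates.

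The peaks come from chromatin immunoprecipitation and sequencing (ChIP-seq) of the caudate putamen, the dorsal striatum, of wild-type male mice of a mixed C57BL/6J x 129SvEms/j background. There was 1 library with an antibody against RARβ and 1 with an antibody against H3K4me3, both from wild-type tissue, and a library made with an antibody against GFP was not analysed here. Neither the age of the mice nor any pooling of animals is given in the sources used here. With 1 library per antibody no value has a replicate error, so no difference was tested. Intervals given below are exact Poisson 95% intervals and cover counting error only. After redundant tags (aligned reads) were removed, the RARβ library held 2237580 tags and the H3K4me3 library 47461843, which was 21.2 times as many.

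Gad1 and Gad2 encode the 2 glutamate decarboxylases, the enzymes that make the inhibitory transmitter GABA from glutamate. The medium spiny projection neurons that make up most of the striatum, and its local interneurons other than the cholinergic ones, use GABA. Dlx1, Dlx2, Dlx5 and Dlx6 encode homeobox transcription factors that direct the development of GABAergic neurons in the ventral forebrain. They are arranged as neighbouring pairs, Dlx1 with Dlx2 and Dlx5 with Dlx6, each with antisense or long noncoding transcripts, among them Dlx1as and Dlx6os1. RARβ is enriched in the striatum and binds DNA as a dimer with a retinoid X receptor, at direct repeats of the hexamer AGGTCA. H3K4me3 is a mark of active promoters.

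The promoters of these genes are shown so that the letters the receptor family is known for can be looked for at loci with and without a RARβ peak. Sequences covering 250 bases before to 50 bases from the gene's start were found for 4 of the 6 genes in a RefSeq table. That table is on build GRCm38.p6, which differs from the mm9 build of the peaks, so none of the sequences was placed on a peak. They lie at chr2:70561879-70562178 for Gad1, at chr2:22622077-22622376 for Gad2 and at chr2:71529195-71529494 for Dlx1, all on the plus strand. Dlx2 lies at chr2:71546705-71547004 on the minus strand. Each is written 5′ to 3′ on its gene's strand, and capitals mark hexamers on either strand. The hexamers searched were AGGTCA itself, its variant AGTTCA, a further variant GGGTCA, and the combined variant GGTTCA.
Gad1: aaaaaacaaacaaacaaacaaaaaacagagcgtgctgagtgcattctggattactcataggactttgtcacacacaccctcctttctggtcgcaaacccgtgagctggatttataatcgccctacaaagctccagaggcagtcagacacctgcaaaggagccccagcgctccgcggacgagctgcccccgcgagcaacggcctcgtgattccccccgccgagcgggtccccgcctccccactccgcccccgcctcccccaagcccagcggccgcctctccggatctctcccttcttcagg
Gad2: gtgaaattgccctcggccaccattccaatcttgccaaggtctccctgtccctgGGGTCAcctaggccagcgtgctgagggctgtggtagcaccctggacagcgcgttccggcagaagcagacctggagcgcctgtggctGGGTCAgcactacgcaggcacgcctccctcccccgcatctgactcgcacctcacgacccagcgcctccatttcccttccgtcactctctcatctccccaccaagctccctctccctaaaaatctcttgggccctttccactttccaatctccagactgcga
Dlx1: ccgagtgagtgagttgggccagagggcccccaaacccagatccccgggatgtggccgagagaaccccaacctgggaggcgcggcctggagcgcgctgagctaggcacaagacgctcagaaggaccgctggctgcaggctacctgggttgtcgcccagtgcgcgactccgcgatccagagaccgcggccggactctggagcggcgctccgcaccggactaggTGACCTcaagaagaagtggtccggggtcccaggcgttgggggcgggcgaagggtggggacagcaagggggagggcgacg
Dlx2: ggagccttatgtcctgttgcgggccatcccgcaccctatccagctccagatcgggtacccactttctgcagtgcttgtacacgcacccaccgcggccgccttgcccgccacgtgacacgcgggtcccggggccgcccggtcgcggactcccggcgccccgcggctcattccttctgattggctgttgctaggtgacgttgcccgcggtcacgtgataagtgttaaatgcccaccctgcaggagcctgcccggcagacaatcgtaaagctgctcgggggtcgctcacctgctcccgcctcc

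The Gad2 promoter held GGGTCA at bases 54 to 59 and again at bases 140 to 145. The Dlx1 promoter held AGGTCA on the opposite strand at bases 222 to 227. Neither the Gad1 nor the Dlx2 promoter held any of the 4 hexamers, which says only that these letters are not in these windows. At least 1 of the 4 was present in 43.7% of the 32851 promoters of the table, AGGTCA in 16.3% and GGGTCA in 13.7%. No direct repeat of AGGTCA with a spacer of 1, 2 or 5 bases, any letters, was found in the 4 promoters, and such repeats were rare in the table, in 13, 3 and 3 promoters. A repeat also counts as a match of the single hexamer. All 4 promoters were richer in G and C than the table's median of 52.7%, at 60.0% for Gad1, 61.3% for Gad2, 69.3% for Dlx1 and 66.3% for Dlx2. They held 21, 14, 27 and 29 CpG pairs, against a median of 7.

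All 4 windows carried H3K4me3, and 3 of the 4 also carried RARβ. The Gad1 window held 7 RARβ peaks, the Dlx5/Dlx6 window 5, the Gad2 window 2 and the Dlx1/Dlx2 window none. The mark was shared, by at least 1 bp, at 13 of the 14 RARβ peaks, against 64.9% of the whole RARβ list. RARβ was present at 6 of the 13 H3K4me3 peaks, against 13.1% of the whole H3K4me3 list. Width moves with this share: RARβ was found at 35.2% of the widest 10% of H3K4me3 peaks, those of 4176 bp or more. Of the 13 peaks, 7 were that wide, and 4 of these held RARβ. The 3 peaks of 10 to 20 kb, at Gad1, Gad2 and Dlx5/Dlx6, all held RARβ, as did 65.9% of the list in that range. Of the 4 peaks of 5 to 10 kb, 1 of Dlx5/Dlx6 and 3 of Dlx1/Dlx2, only the first did, against 37.2% of the list. An FDR of at most 5%, the authors' estimate of the share of false calls, was given to 6 of the 13 and to 35.0% of the list. Among the other 7 the FDR did not move steadily with tags. The peak of 48 tags had 11.99% and that of 365 tags 19.73%. The one with the most, 728, had the lowest FDR of the 7, 6.61%. The windows were chosen for their genes and peaks of 1 window are not replicates, so these counts describe the loci and were not tested.

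**Figure D1:**
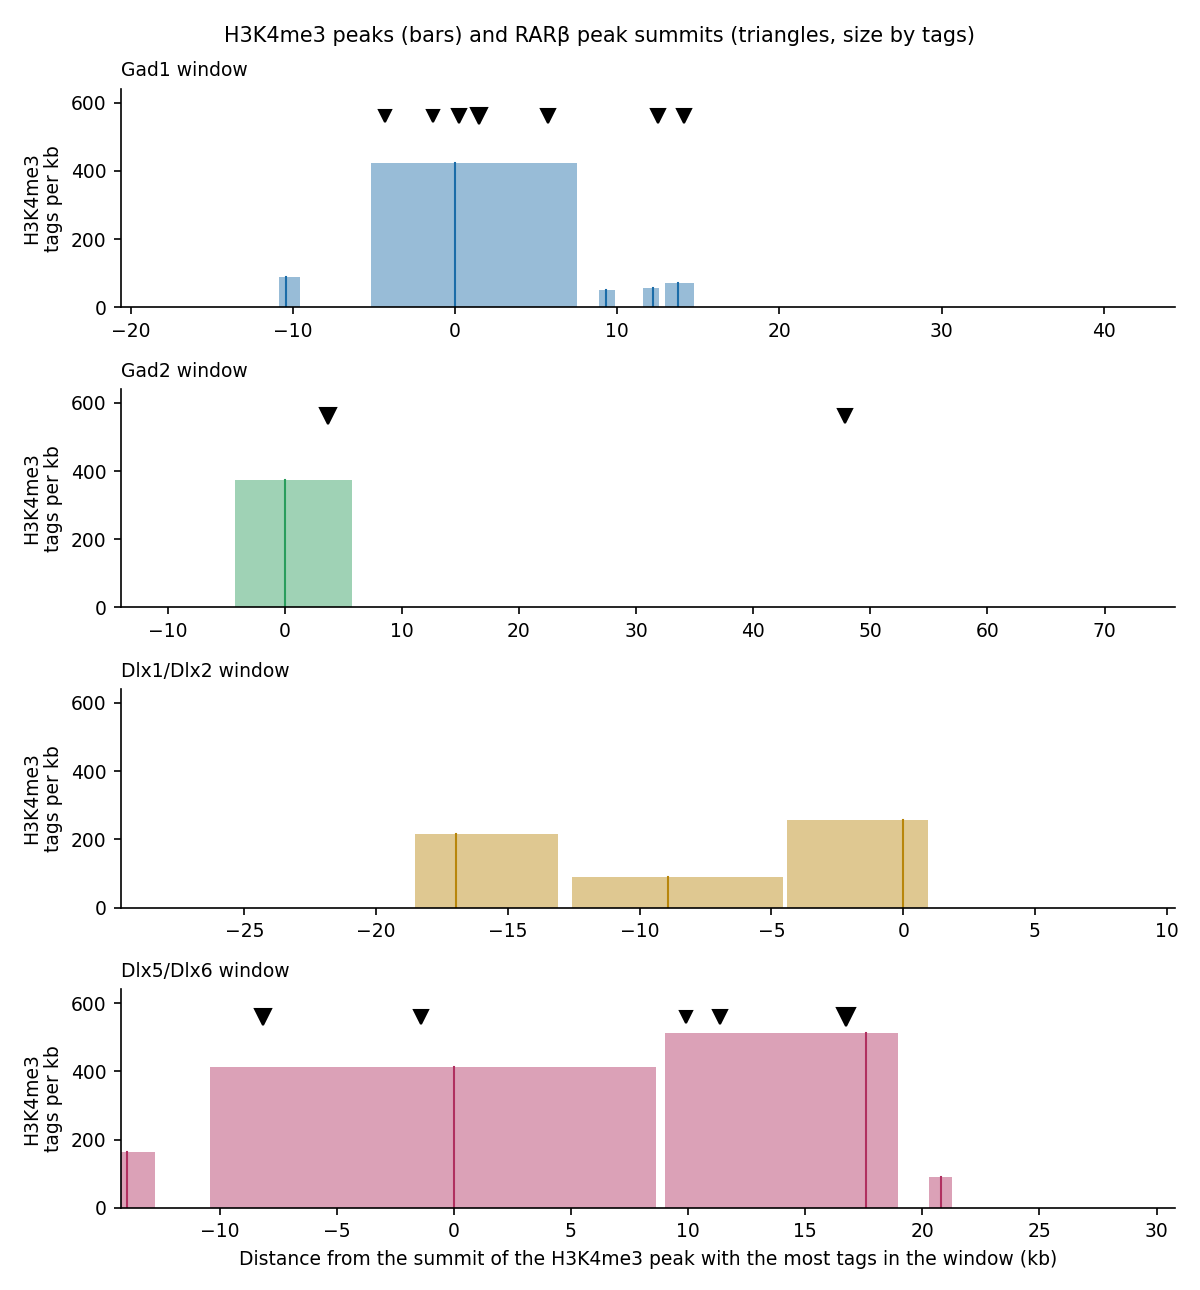
Maps of the Gad1, Gad2, Dlx1/Dlx2 and Dlx5/Dlx6 windows, drawn from edge to edge of each window. The horizontal axis is the distance in kb from the summit of the H3K4me3 peak with the most tags, bars are H3K4me3 peaks with height in tags per kb and a line at the summit, and triangles are RARβ summits at an arbitrary height, larger with more tags. The 7 RARβ summits of Gad1 and the 5 of Dlx5/Dlx6 all lie over bars, 1 of the 2 of Gad2 does not, and Dlx1/Dlx2 has none.

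At Gad1, 1 broad H3K4me3 peak stood over 4 small ones. The broad peak, chromosome 2, 70395381 to 70408098, spanned 12.7 kb and had 5397 tags (5254 to 5543), a density of 424 tags per kb. It ranked 82nd by width and 80th by tags among the 35971 peaks of the list, whose median was 1679 bp and 206 tags. Its fold enrichment, which the authors' caller computes as tag pileup at the summit over the local background, was 21.56, higher than that of 73.8% of the list. The 4 small peaks were 958 to 1739 bp wide with 48 to 122 tags. The FDR was 3.36% for the broad peak and 11.99% to 19.57% for the small ones. H3K4me3 peaks covered 27.3% of the Gad1 window.

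RARβ was spread along this marked stretch of Gad1 rather than gathered at 1 site. The broad H3K4me3 peak held 5 RARβ peaks with 8, 8, 10, 13 and 10 tags, in order of position. Their summits lay 4304 and 1341 bp below the H3K4me3 summit and 242, 1472 and 5757 bp above it. The RARβ peak with the most tags of the 5, at 70401852 to 70402669, had a fold enrichment of 22.99. The one nearest to the H3K4me3 summit, at 70400575 to 70401374, had the lowest fold enrichment of the 14, 11.49, and the highest FDR of the 14, 0.28%. The one farthest above, at 70405896 to 70406534, reached 27.08. Among these 5, the peak closest to the summit of the mark was thus the lowest by fold enrichment. By tags it was not, with 10, and the intervals of the 5 tag counts overlap.

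The other 2 RARβ peaks of Gad1 lay in the small H3K4me3 peaks above the broad one. The peak at 70412755 to 70413388 had 11 tags (5.49 to 19.7) and a fold enrichment of 34.82, the highest of the 14 and above 89.2% of the RARβ list. It overlapped an H3K4me3 peak of only 997 bp and 57 tags, at 70412172 to 70413168, with 65.3% of its length, and its summit was 319 bp from the H3K4me3 summit. The peak at 70414248 to 70415208 had 11 tags and a fold enrichment of 29.19, and lay whole within an H3K4me3 peak of 1739 bp and 122 tags, its summit 361 bp from the H3K4me3 summit. The 2 highest RARβ fold enrichments of Gad1 were thus found where the mark was weak. Their tags did not set them apart, at 11 each against 8 to 13 in the broad peak, with overlapping intervals. The value of 34.82 equalled, to within 0.01, 9 tags divided by the genome-wide background.

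The number of RARβ peaks at Gad1 was rarely matched in the list. Only 9 of the 35971 H3K4me3 peaks held 5 or more RARβ peaks (0.025%), all in the widest 10% of the list, of which they made up 0.25%. Among the 182 peaks of 10 to 20 kb the share was 2.75%. The highest number in any H3K4me3 peak was 7. The 7 summits of Gad1 spanned 18.4 kb, with 1.23 to 6.76 kb between neighbours. When RARβ summits no more than 10 kb apart were linked, they formed 1 of 11 groups of 7 or more, out of 955 groups of 2 or more. The limits of 5 and 7 equal the counts at Gad1 itself. At Dlx5/Dlx6 the same link gave a group of 2 summits and a group of 3, with 11.3 kb between them. In the widest 10% of H3K4me3 peaks there were 75.7 RARβ summits per Mb. That density gives 0.963 summits in the length of the broad Gad1 peak, where 5 were found. Most peaks of that group, which begins at 4176 bp, are narrower than this one. Each of the 7 peaks rests on at most 13 tags.

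Gad2, the other decarboxylase gene, also had a broad mark, with 1 RARβ peak in it. Its window held a single H3K4me3 peak, at chromosome 2, 22474698 to 22484749, 10.1 kb wide with 3764 tags (3645 to 3886), 374 tags per kb. Its fold enrichment was 20.78 and its FDR 3.36%, and it ranked 190th by width and 360th by tags. The mark covered 11.2% of the window, the smallest share of the 4, in the longest of the windows. The peak held 1 RARβ peak, at 22482487 to 22483228, with 15 tags (8.40 to 24.7) and a fold enrichment of 13.27. Its summit lay 3728 bp above the H3K4me3 summit. At the density of the widest 10%, a length of this size holds 0.761 summits. The 1 peak here is close to that, though most peaks of that group are narrower. Per length of all marked peaks in the window, Gad1 had 394 summits per Mb (158 to 812) and Gad2 99.5 (2.52 to 554). These intervals overlap widely, but they treat neighbouring summits as independent counts. The difference between the 2 genes was not tested. The 15 tags of the Gad2 peak were more than those of any Gad1 peak, within counting error.

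The second RARβ peak of Gad2 was the only 1 of the 14 outside the mark. It lay at 22526483 to 22527295, 41.7 kb from the H3K4me3 peak, with 12 tags (6.20 to 21.0) and a fold enrichment of 30.95, above 84.4% of the RARβ list. The peak inside the mark had more tags but less than 0.5 times this fold enrichment. The intervals of the 2 tag counts overlap, so the tags do not separate them. The fold enrichment of the outer peak equalled, to within 0.01, 8 tags divided by the genome-wide background. The inner peak was set against a higher local background.

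Of the transcription factor loci, Dlx5/Dlx6 carried the broadest mark. Its main H3K4me3 peak, on chromosome 6 at 6803808 to 6822810, was 19003 bp wide with 7843 tags (7670 to 8018) and a fold enrichment of 35.93. It was 21st by width and 16th by tags in the list. After a gap of 402 bp followed a peak at 6823213 to 6833177, 9.96 kb wide with 5117 tags (4978 to 5259) and a fold enrichment of 20.58. This second peak was the most densely marked of the 13, with 514 tags per kb against 413 in the first, and above 95.2% of the list. Both had an FDR of 3.36%. The remaining 2 H3K4me3 peaks had 365 and 89 tags with FDRs of 19.73% and 15.83%, and held no RARβ. Marked peaks covered 69.7% of the window.

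Both broad Dlx5/Dlx6 peaks held RARβ, 2 peaks in the first and 3 in the second. Over the whole list, 1.21% of H3K4me3 peaks held 2 or more and 0.209% held 3 or more, and in the widest 10% these shares were 8.51% and 1.89%. At like widths such numbers were more common: 35.7% of peaks of 10 to 20 kb held 2 or more, and 5.29% of peaks of 8 to 12 kb held 3 or more, the last range being set after the width of the second peak was seen. In the first, the RARβ peak at 6805139 to 6806248 had 15 tags and a fold enrichment of 25.54, and the one at 6812506 to 6813097 had 10 tags and 15.33. In the second, the peaks at 6823792 to 6824290, 6825085 to 6825770 and 6830469 to 6831562 had 7, 10 and 17 tags and fold enrichments of 13.68, 15.33 and 24.72. The last of these had the most tags of all 14 (9.90 to 27.2), and the 7 tags of the first of the 3 equal the fewest in the whole RARβ list. In both broad peaks the RARβ summits lay below the H3K4me3 summit, by 8148 and 1415 bp in the first and by 7683, 6237 and 862 bp in the second. All 5 peaks lay whole inside the mark. At the density of the widest 10% the 2 broad peaks would hold 2.19 summits, and 5 were found. That group begins at 4176 bp, so most of its peaks are narrower than these 2.

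Dlx1/Dlx2 had the mark and no receptor peak. Its 3 H3K4me3 peaks lay on chromosome 2 at 71366135 to 71371569, 71372101 to 71380096 and 71380256 to 71385627, and were 5.43, 8.00 and 5.37 kb wide. They held 1172 (1106 to 1241), 728 (676 to 783) and 1376 tags (1304 to 1451), with fold enrichments of 32.7, 12.21 and 13.73 and FDRs of 3.36%, 6.61% and 3.36%. Gaps of 531 and 159 bp separated them. Marked length made up 47.0% of the window, a larger share than at Gad1 or Gad2, whose windows are longer. In kb it was 18.8, against 17.8 at Gad1 and 10.1 at Gad2. The nearest RARβ peak, at 71467513 to 71468055 with 7 tags, was 81.9 kb from the closest of these H3K4me3 peaks. On the other side, the nearest was 151 kb below the window, at 71203980 to 71204491, also with 7 tags.

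The mark of Dlx1/Dlx2 was less dense than that of the other loci. It had 216, 91.0 and 256 tags per kb in the 3 peaks, below the broad peaks of Gad1, Gad2 and Dlx5/Dlx6, at 374 to 514. Against the list median of 121 tags per kb, the outer peaks were above and the middle peak was below. The fold enrichment of 32.7 in the first peak was above 87.6% of the list and above those of the broad Gad1 and Gad2 peaks. RARβ was more frequent at H3K4me3 peaks with many tags: with the list divided into 10 groups by tags, RARβ was found at 38.3% of the group with the most tags and at 20.8% and 14.8% of the next groups. Below these the share was flat, at 9.37%, 10.7%, 9.04% and 9.45%, and then fell to 7.62%, 6.12% and 4.56%. The 3 Dlx1/Dlx2 peaks had more tags than 79.0%, 68.6% and 83.9% of the list, which puts them in the groups with shares of 14.8%, 9.37% and 20.8%. The part of tags in the absence of RARβ at Dlx1/Dlx2 was not tested. Among the 460 peaks of the widest 10% with 700 to 1400 tags, limits set after the Dlx1/Dlx2 values were seen, 16.5% held RARβ. The 3 peaks are close neighbours and not replicates, so their count of 0 was not weighed against that share. By width alone the share was higher, at 37.2% of peaks of 5 to 10 kb. The marked length of Dlx1/Dlx2 would hold 1.42 summits at the density of the widest 10%. The fewest tags of any RARβ peak in the list were 7. The number needed for a call at Dlx1/Dlx2 is not known, so weaker binding there may have gone undetected at this depth.

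**Figure D2:**
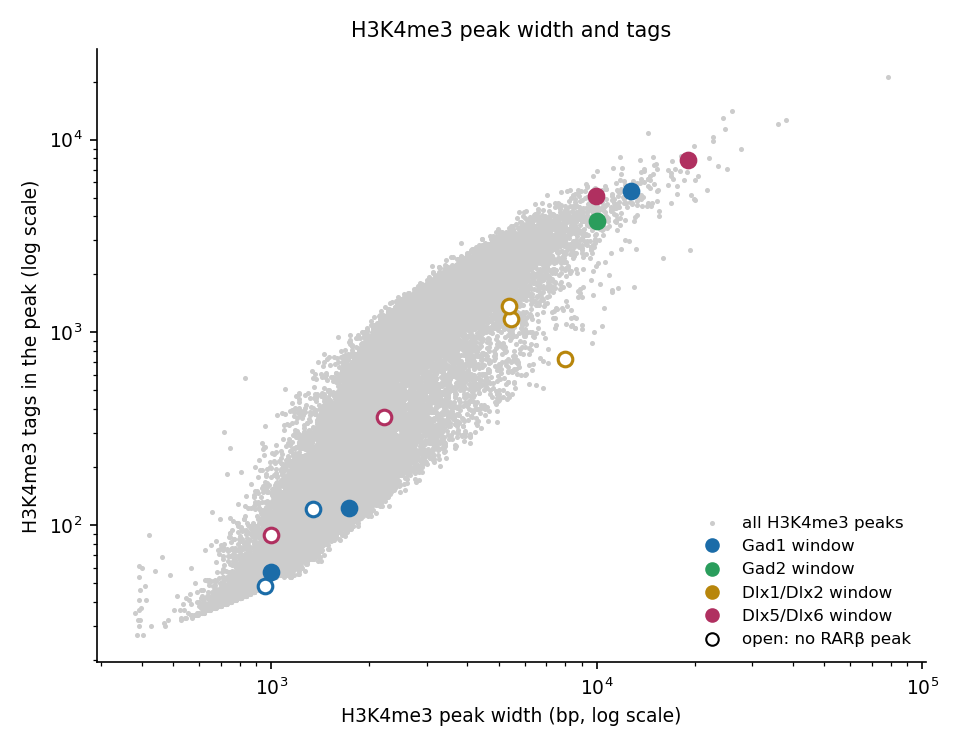
Width in bp against tags of every H3K4me3 peak, both axes on log scales, with the 13 peaks of the Gad and Dlx windows in colour and open where no RARβ peak overlaps. The 4 filled peaks at upper right have 3764 to 7843 tags, and the 3 open Dlx1/Dlx2 peaks, with 728 to 1376 tags, lie low for their width.

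Several of these H3K4me3 peaks lay close to each other. When peaks with gaps of at most 1 kb were joined, the 35971 peaks became 34089 domains. The broad Dlx5/Dlx6 peaks then formed 1 domain of 29.4 kb with 12960 H3K4me3 tags and 5 RARβ peaks, the 8th by width and the 5th by tags of all domains. The 3 peaks of Dlx1/Dlx2 formed 1 domain of 19.5 kb with 3276 tags, the 28th by width but the 621st by tags, with no RARβ peak. The broad Gad1 peak, 141st by width, and the Gad2 peak, 321st, had no neighbour close enough to join. The 2 small Gad1 peaks with RARβ joined into a domain of 3129 bp.

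Both joined Dlx domains were among the widest in the striatal list. Of the 28 domains of at least 19 kb, a limit set after the Dlx1/Dlx2 width was seen, 23 held a RARβ peak (82.1%, Wilson 95% interval 64.4 to 92.1), and the median over the 28 was 3. Dlx1/Dlx2 was 1 of the 5 without. Its 168 H3K4me3 tags per kb were near the bottom of the 28, with 2 lower, against a median of 303 and against 441 at Dlx5/Dlx6. The 5 domains without RARβ ranged from 141 to 327 tags per kb. Those with RARβ began at 131, in a single domain, and the next lowest had 207, so the ranges overlapped. The part of density in the absence of RARβ was not tested. Across all domains, 13 held 5 or more RARβ peaks, 2 of them the Gad1 and Dlx5/Dlx6 domains.

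**Figure D3:**
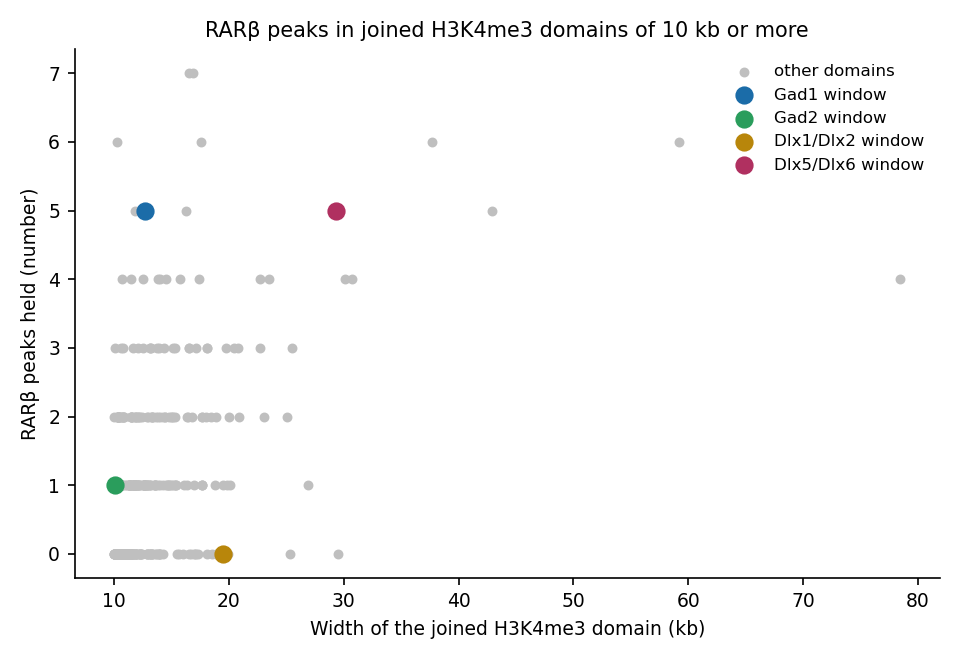
Number of RARβ peaks against width in kb for each H3K4me3 domain of 10 kb or more, after joining peaks with gaps of at most 1 kb; each point is 1 domain. Gad1 (12.7 kb) and Dlx5/Dlx6 (29.4 kb) hold 5 each, Gad2 (10.1 kb) holds 1 and Dlx1/Dlx2 (19.5 kb) holds none.

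As single sites the 14 RARβ peaks were ordinary members of the list. They had 7 to 17 tags with a median of 10.5, against a list median of 10 and quartiles of 8 and 14, and 7 of the 14 were above the list median. Their fold enrichments ran from 11.49 to 34.82, with 8 of 14 above the list median of 19.35. Their widths were 443 to 1110 bp. The authors' FDR was 0.06% to 0.28%. The Poisson intervals of all 14 tag counts overlap each other, from 2.81 to 14.4 for the fewest tags to 9.90 to 27.2 for the most, so no order among the sites is resolved. At the genome-wide average of 1.20 RARβ tags per kb, regions of these widths would hold 0.53 to 1.33 tags.

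**Figure D4:**
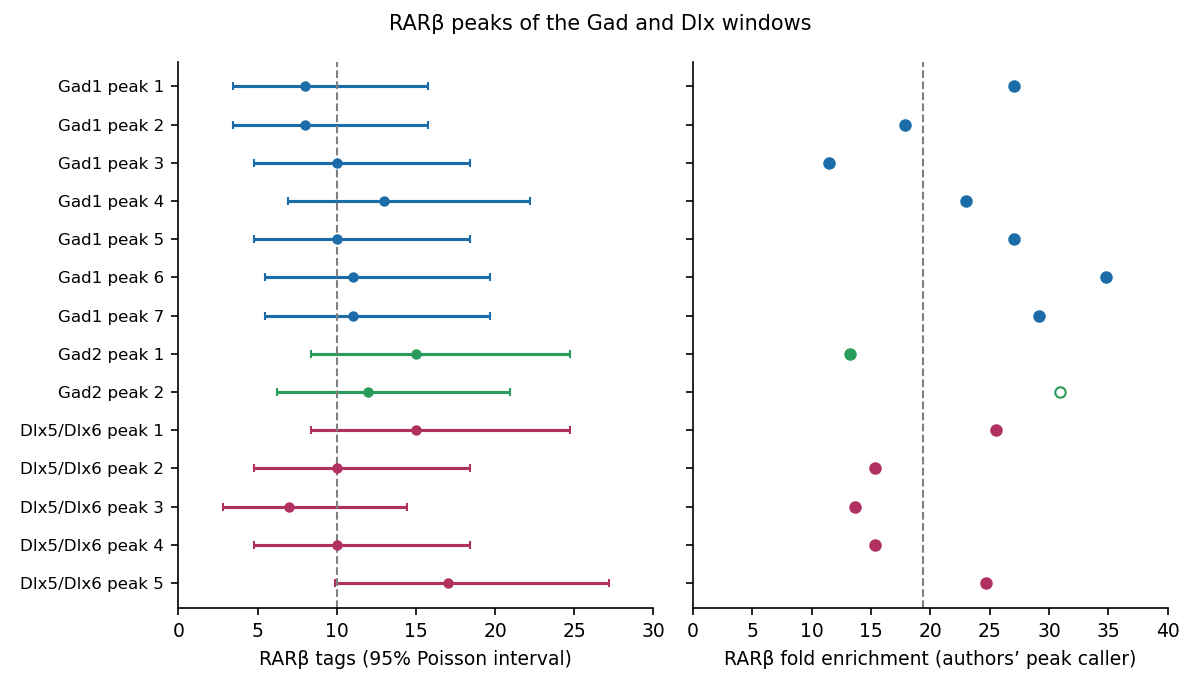
Tags with exact Poisson 95% intervals (left) and fold enrichment (right) of each of the 14 RARβ peaks, in order of position within the Gad1, Gad2 and Dlx5/Dlx6 windows, with the medians of the whole RARβ list as dashed lines. All intervals overlap, and the open circle is the Gad2 peak outside H3K4me3, at a fold enrichment of 30.95.

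Fold enrichment depends on the local background as much as on the tags. For 4 of the 14 RARβ peaks, 3 at Gad1 and the outer peak of Gad2, it equalled whole tags divided by the genome-wide background to within 0.01, where 1 tag is worth 3.87. The same held for 30.7% of the list. No Dlx5/Dlx6 peak was among them, so at all 5 the local background was higher than the genome-wide one. The median fold enrichment was 27.08 at Gad1 and 15.33 at Dlx5/Dlx6, while the median tag number was 10 at both. The part of the control tags in that difference was not tested.

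Within the mark, RARβ summits at these loci lay farther from the H3K4me3 summit than in the list. The median distance of the 13 was 1472 bp, with a range of 242 to 8148 bp and 4 of the 13 within 1 kb. Across all 5131 RARβ summits inside an H3K4me3 peak the median was 345 bp. It was 818 bp for the 1667 in the widest 10% of H3K4me3 peaks, which leave more room. Of the 13, 11 lay in peaks of 9.96 kb or more.

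With the windows widened by 20 kb on each side, the number of RARβ peaks stayed at 14 and that of H3K4me3 peaks went from 13 to 14, 6 of them with RARβ. Measured from the original edges, the nearest RARβ peaks outside were 45.2 kb above Gad2 (30 tags, fold enrichment 9.08), 68.7 kb above Gad1 (7 tags) and 174 kb above Dlx5/Dlx6 (12 tags). The nearest H3K4me3 peak beyond an edge was 12.6 kb above Gad1, with 79 tags, and is the 1 added by widening. Just inside, the first Dlx5/Dlx6 peak, 6799210 to 6801423 with 365 tags, crosses the lower edge and was counted whole. In RefSeq's order of genes, the protein-coding neighbours are Erich2 and Gorasp2 for Gad1, Myo3a and Apbb1ip for Gad2, Metap1d and Itga6 for the Dlx1 and Dlx2 pair, and Sem1 and Sdhaf3 for the Dlx5 and Dlx6 pair. Peaks at the antisense transcripts Gad1os, Dlx1as and Dlx6os1 cannot be told apart from peaks of their partner genes here.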

How the data were processed

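Peak lists of 1 RARβ and 1 H3K4me3 ChIP-seq library were used. The submitters' processing notes name CASAVA 1.8.2, Bowtie and build mm9. Per the file headers, MACS 1.4.2 called each library separately, against a shared control of 3703580 filtered tags whose antibody is not stated, with a p cutoff of 1e-05 and at most 1 tag per position. That control was scaled up for H3K4me3, which had 12.8 times as many tags, so few control tags set the background there. The authors' tag counts are whole and not normalized. Fold enrichment is the ratio the authors deposited. Their deposited score, under a lost column name, is -10 times log10 of the p-value and only ranked peaks here. FDR values were deposited in percent.

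Every peak sharing at least 1 bp with a window was kept. Ranks and shares were computed over whole lists in Python 3.11.15 (numpy 2.4.6; pandas 2.3.3; scipy 1.17.1; matplotlib 3.10.9 for plots), and overlap and joining were tested on simulated data. Genes and windows were chosen with earlier results of these data known. An annotation of build mm9 was not used here, so listed GABA pathway genes and cell type markers could not be placed, and the tissue was not checked against markers.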

Additional observations from a re-analysis of the deposited data

How the results depend on the processing

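When only H3K4me3 peaks of FDR 5% or lower were kept, their number in the windows fell from 13 to 6, and the covered length from 78.0 to 62.5 kb. Of the 6, 4 held RARβ, and 11 of the 14 RARβ peaks (78.6%) remained in the mark. Joining peaks with gaps of at most 1 kb gave 9 in place of 13, and widening the windows by 20 kb on each side gave 14, with 79.95 kb covered. The number of H3K4me3 peaks holding RARβ stayed at 6 with RARβ peaks of at least 10 tags, with the higher-scoring RARβ peaks, with the summit or at least 50% of the RARβ peak inside, and with the widened windows. Dlx1/Dlx2 was the only window with the mark and no RARβ peak under each of these alternatives. None of them could have changed the absence at Dlx1/Dlx2. The stricter settings only remove RARβ peaks, and the nearest one lay 72.5 kb above the window, beyond the widening. No paired analysis was possible because there was 1 library per antibody. At the depth of the RARβ library, no site with fewer than 7 tags was called, and the number needed at a given site is not known.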
